A study of Mus musculus with 22 samples.

Results

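Read counts were examined for 9 genes of the mitochondrial ATP synthase in the brain of the Ts66Yah mouse, a model of Down syndrome. They were the rows of the deposited count table named Atp5j, Atp5o, Gm11966, Gm5436, Atp5a1, Atp5b, Atp5c1, Atp5d and Atp5h, out of 55385 rows in all. Atp5j and Atp5o lie in the triplicated segment, Gm11966 and Gm5436 are processed pseudogenes, and the other 5 encode subunits that are not triplicated. The table holds 22 libraries from 11 male mice aged 5 to 6 months. The same mice gave a library of the hippocampus (HIP) and one of the entorhinal cortex (EC). They were 5 wild-type (wt) littermates and 6 Ts66Yah mice. The latter carry a minichromosome with an additional copy of distal mouse chromosome 16 from Mir155 to the telomere, and all are descended from 1 founder in which Cas9 had removed the centromeric chromosome 17 part of the parental Ts65Dn chromosome. Both genotypes were littermates on a mixed C57BL/6 and C3H background. Libraries held 25.9 to 50.1 M counts, with a median of 34.7 M, and the 9 members together took 0.263% to 0.359% of them.

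ATP synthase, or complex V of the respiratory chain, is a rotary enzyme of the inner mitochondrial membrane that makes ATP from ADP and phosphate as protons flow back into the matrix. Its catalytic head is built from alpha (Atp5a1) and beta (Atp5b) subunits, and gamma (Atp5c1) and delta (Atp5d) belong to the central stalk that turns inside it. The peripheral stalk holds the head still, and it contains coupling factor 6 (Atp5j), the oligomycin sensitivity-conferring protein OSCP (Atp5o) and subunit d (Atp5h). Neurons depend heavily on this enzyme, since ion pumping at synapses consumes ATP.

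The tissue labels were compared with marker genes. Summed CPM (counts per M counts of the library, scaled by TMM factors) of the neuronal markers Snap25, Syt1 and Rbfox3 lay between 4656 and 6568 in the lowest and the highest library. Hippocampal markers (Prox1, Zbtb20, Wfs1) ranged from 606 to 766 CPM in HIP and from 271 to 356 CPM in EC. The 5 choroid plexus markers varied most within a group, from 110 to 3282 CPM among wt HIP libraries and from 765 to 2804 CPM among Ts66Yah HIP libraries. Their part in the results was not tested. Genes of mitochondrial DNA took 3.68% to 6.18% of the counts of a library.

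The sequence of Gm11966 is shown first, because all of it is also found in the Atp5j transcript. Gm11966 (ENSMUSG00000080904) is annotated on the minus strand of GRCm38 at chr11:5818497-5818583 and is 87 bases long. It matched the end of the Atp5j coding sequence, transcript bases 636 to 722, at 87 of 87 bases. The capitals mark 5 bases on each side of the place where 2 Atp5j exons are joined, after transcript base 684.
Gm11966: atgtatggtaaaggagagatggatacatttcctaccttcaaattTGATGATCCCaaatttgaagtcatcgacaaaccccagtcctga
All 38 of its stretches of 50 bases, which was the read length, occurred in Atp5j, and all 38 cross that junction. A read of this stretch therefore aligns without a gap to Gm11966 and only across an intron to Atp5j. These 38 positions were 5.00% of the 760 such positions in the Atp5j transcript.

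Gm5436 (ENSMUSG00000042962; minus strand, chr12:84258331-84258973) is a longer copy of 643 bases. It aligned to the whole Atp5o coding sequence with 19 mismatches and no gap, an identity of 97.1%, and spanned the place of all 6 exon junctions. The window of 150 bases with the most differences is shown beside the same stretch of Atp5o to make visible how far the 2 can be told apart by reads of 50 bases. It lies at chr12:84258815-84258964 on the minus strand and matches bases 142 to 291 of the Atp5o transcript. The 7 differing bases are in capitals.
Gm5436: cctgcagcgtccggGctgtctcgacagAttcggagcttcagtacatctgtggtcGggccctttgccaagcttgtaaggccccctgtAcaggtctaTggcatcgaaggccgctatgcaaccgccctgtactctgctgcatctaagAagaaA
Atp5o: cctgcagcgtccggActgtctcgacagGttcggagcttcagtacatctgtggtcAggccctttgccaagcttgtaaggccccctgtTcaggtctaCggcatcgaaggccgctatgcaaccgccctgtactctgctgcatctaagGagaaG
Of the 594 stretches of 50 bases in Gm5436, 151 (25.4%) were also in Atp5o, and 73 of these cross an Atp5o junction. The other stretches differ from Atp5o at 1 base or more.

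**Figure D1:**
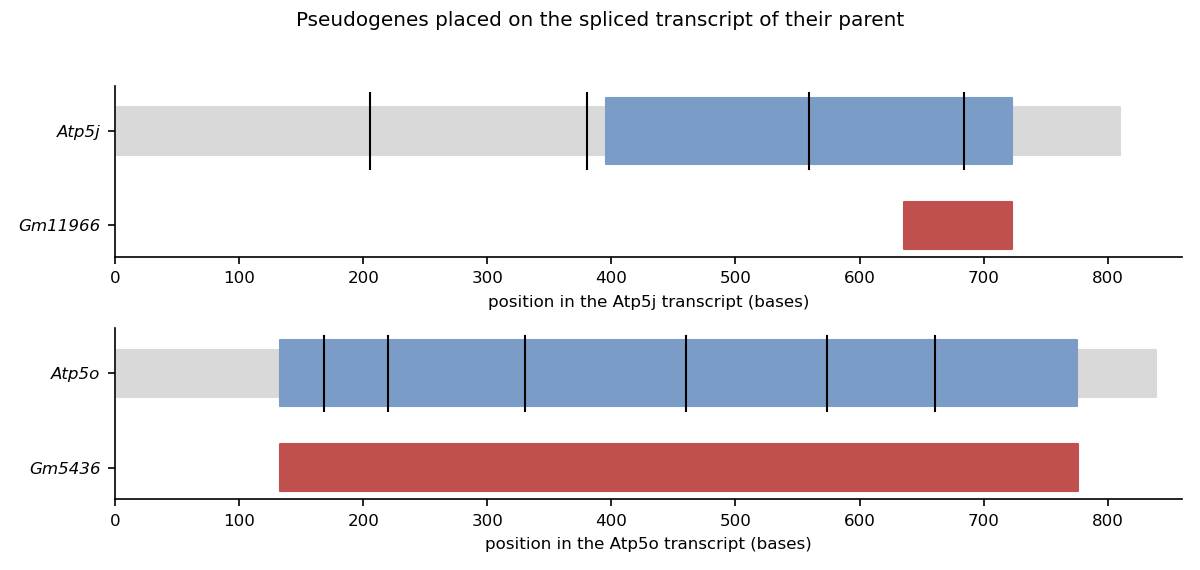
The pseudogenes Gm11966 and Gm5436 (red) placed on the spliced transcripts of Atp5j and Atp5o; the x axis is the position in the transcript in bases, blue marks the coding sequence, grey the rest and black lines the exon junctions. Gm11966 covers 87 bases at the end of the Atp5j coding sequence and 1 junction, and Gm5436 covers the Atp5o coding sequence and 6 junctions.

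Atp5j (ENSMUSG00000022890; minus strand, chr16:84827866-84835625), which encodes coupling factor 6 of the peripheral stalk, rose in Ts66Yah in both regions. In HIP, the 5 wt libraries held 67.1, 76.6, 76.8, 79.6 and 87.3 CPM, and the 6 Ts66Yah libraries ranged from 104 to 119 CPM with a median of 113 CPM. In EC, the wt libraries held 72.8, 74.5, 80.4, 85.1 and 102 CPM, and the Ts66Yah libraries ranged from 115 to 153 CPM with a median of 124 CPM. Every Ts66Yah library was above every wt library of its region. The log2 fold change was 0.54 ± 0.06 (SE) in HIP, or 1.45-fold with a 95% confidence interval of 1.33 to 1.59 (adjusted p = 0.00031, edgeR quasi-likelihood test with Benjamini-Hochberg adjustment, as for all adjusted p-values of single genes here). In EC it was 0.63 ± 0.09, or 1.54-fold (1.34 to 1.78; adjusted p = 0.00701).

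Atp5o (ENSMUSG00000022956; minus strand, chr16:91925214-91931687) encodes OSCP, which joins the peripheral stalk to the head, and it rose in both regions as well. In HIP, the wt libraries held 48.4, 53.3, 55.5, 56.8 and 57.9 CPM, and the Ts66Yah libraries ranged from 81.0 to 104 CPM around a median of 87.0 CPM. In EC, the wt libraries held 59.5, 66.0, 67.8, 68.0 and 81.1 CPM, against a range of 87.8 to 128 CPM and a median of 106 CPM in Ts66Yah. The genotypes did not overlap in either region. The log2 fold change was 0.71 ± 0.07 in HIP (1.64-fold, 1.48 to 1.81; adjusted p = 4.9e-05) and 0.67 ± 0.10 in EC (1.59-fold, 1.37 to 1.85; adjusted p = 0.00693).

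Gm11966 also rose in both regions, although chromosome 11 is not triplicated. Its wt HIP libraries held 15.5, 16.4, 18.2, 21.4 and 21.7 CPM, and its Ts66Yah HIP libraries ranged from 29.5 to 36.7 CPM with a median of 32.0 CPM. In EC, 18.2, 18.6, 21.5, 24.6 and 29.0 CPM in wt stood against a range of 32.3 to 47.8 CPM and a median of 38.9 CPM in Ts66Yah. No Ts66Yah library fell into the wt range. The log2 fold change was 0.80 ± 0.09 in HIP (1.74-fold, 1.51 to 1.99; adjusted p = 0.000391) and 0.80 ± 0.13 in EC (1.74-fold, 1.44 to 2.10; adjusted p = 0.0119). With a correction for GC content the EC value was 0.75 and no longer passed the threshold (adjusted p = 0.110). No stretch of 50 bases within its 87 annotated bases tells it from Atp5j. Its count is therefore uncertain, and so is the share of Atp5j reads that it holds. The bases beside the annotated copy were not read, so reads that cross its ends were not assessed. Gm11966 held 24.0 counts per 100 Atp5j counts in the wt HIP, while the shared positions were 5% of those of Atp5j. The cause of this difference was not tested.

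Gm5436 rose in HIP, where the wt libraries held 10.4, 11.1, 12.1, 12.3 and 12.8 CPM and the Ts66Yah libraries ranged from 16.3 to 20.9 CPM with a median of 17.0 CPM. The log2 fold change there was 0.59 ± 0.08 (1.5-fold, 1.33 to 1.70; adjusted p = 0.00195). In EC, the wt libraries held 12.7, 12.8, 15.2, 15.3 and 16.5 CPM, against a range of 17.4 to 26.2 CPM and a median of 20.8 CPM in Ts66Yah. The groups did not overlap there either, but the log2 fold change of 0.58 ± 0.11 missed the threshold (1.49-fold, 1.26 to 1.77; adjusted p = 0.0577). It passed without Ts66Yah replicate 6 (0.63, adjusted p = 0.0255) and with DESeq2 (adjusted p = 0.000455).

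**Figure D2:**
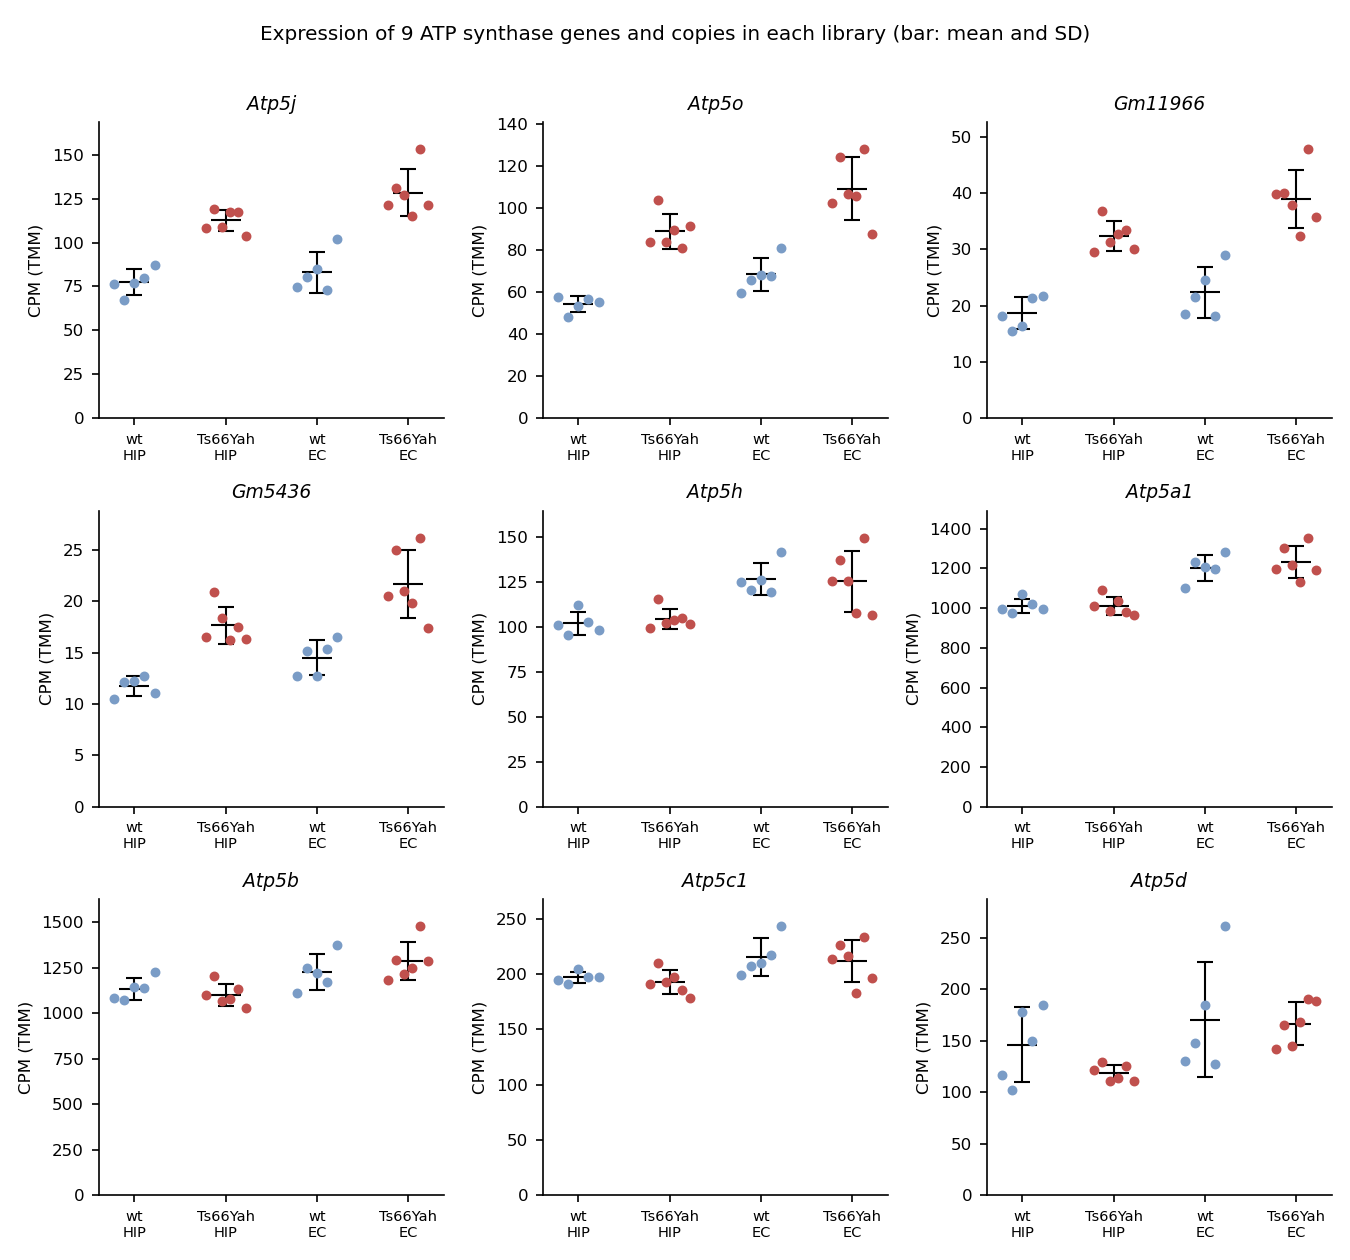
CPM (y axis, TMM-scaled, from 0) of each of the 9 genes in every library; points are libraries, blue for wt and red for Ts66Yah, and bars give the mean and the SD of 5 wt or 6 Ts66Yah libraries. In the panels of Atp5j, Atp5o, Gm11966 and Gm5436 the Ts66Yah points lie above all wt points of their region, whereas in the other 5 panels the genotypes overlap.

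In all, 4 of 9 members rose in HIP and 3 of 9 in EC, and none fell. Gm11966 and Gm5436 are not independent of Atp5j and Atp5o in this count, since they share stretches of 50 bases with them. When pseudogene counts were added to the parents, 2 members passed in each region. Over all tested genes, 0.591% passed the threshold in HIP (109 of 18452) and 0.283% in EC (50 of 17658), and 0.439% and 0.272% did so as higher in Ts66Yah. Genes of the triplicated segment passed as higher in 57.4% of cases in HIP (58 of 101) and 48.4% in EC (45 of 93). A complete separation, with every Ts66Yah library above every wt library, was found for 1.06% of tested genes in HIP and 0.549% in EC.

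The mice carry animal numbers, and all but wt replicate 1 fall into a lower range (2 wt, 2 Ts66Yah) or a higher range (2 wt, 4 Ts66Yah) of them. With the range as a block, and wt replicate 1 left out, the 4 HIP calls were kept, with adjusted p-values from 0.000353 to 0.0187. In EC the log2 fold changes were 0.60 for Atp5j, 0.62 for Atp5o and 0.75 for Gm11966, and none passed the threshold (adjusted p = 0.0557, 0.0557 and 0.0713). Within the lower range, the log2 fold changes of Atp5j and Atp5o were 0.62 and 0.76 in HIP and 0.72 and 0.68 in EC. Within the higher range they were 0.45 and 0.69 in HIP and 0.51 and 0.57 in EC. The lower range alone left both short of the threshold in HIP (adjusted p = 0.0934 for Atp5j and 0.0510 for Atp5o), whereas both passed in the higher range (adjusted p = 0.0326 and 0.0204). In EC neither passed within a range (adjusted p = 0.270 and 0.544 in the lower, 0.624 and 0.378 in the higher). All these estimates were positive in both ranges, as were those of Gm11966 (0.99 and 0.60 in HIP, 0.85 and 0.67 in EC) and Gm5436 (0.47 and 0.60 in HIP, 0.64 and 0.44 in EC). Gm11966 passed in HIP in both ranges (adjusted p = 0.0307 and 0.0385) but in neither in EC (adjusted p = 0.273 and 0.643). Gm5436 passed in neither range in HIP (adjusted p = 0.306 and 0.0877) or in EC (adjusted p = 0.733 and 0.695).

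The question of whether the partner subunits follow was addressed with the 5 members that are not triplicated. None of them passed the threshold in either region, and their log2 fold changes ranged from -0.30 to 0.04 in HIP and from -0.04 to 0.07 in EC. Atp5h (ENSMUSG00000034566; minus strand, chr11:115415689-115419962), which sits beside Atp5j and Atp5o in the peripheral stalk, held 95.4, 98.5, 101, 103 and 112 CPM in the wt HIP, and 99.3 to 116 CPM with a median of 103 CPM in the Ts66Yah HIP. Its log2 fold change was 0.04 ± 0.05 in HIP (1.03-fold, 0.951 to 1.11; adjusted p = 0.841) and -0.02 ± 0.09 in EC (0.989-fold, 0.867 to 1.13; adjusted p = 0.995).

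The head subunits were the members with the most reads. Atp5a1 (ENSMUSG00000025428, chromosome 18) held 1011 ± 36.9 CPM (SD, n = 5) in the wt HIP and 1011 ± 45.1 CPM (n = 6) in the Ts66Yah HIP, and 1203 ± 65.1 and 1233 ± 82.1 CPM in EC. Its fold of Ts66Yah over wt was bounded by 0.934 and 1.07 in HIP and by 0.936 and 1.12 in EC. Atp5b (ENSMUSG00000025393; plus strand, chr10:128083273-128090391) held 1133 ± 60.9 and 1102 ± 60.7 CPM in the wt and the Ts66Yah HIP, and 1225 ± 99.8 and 1285 ± 104 CPM in EC. The intervals of its fold were 0.901 to 1.05 and 0.944 to 1.16.

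Of the central stalk genes, Atp5c1 (ENSMUSG00000025781; minus strand, chr2:10056016-10080510) held 197 ± 4.93 CPM in the wt HIP and 193 ± 10.9 CPM in the Ts66Yah HIP, and 215 ± 17.0 and 212 ± 18.8 CPM in EC. The intervals of its fold were 0.914 to 1.04 and 0.882 to 1.09. Atp5d (ENSMUSG00000003072; plus strand, chr10:80138632-80145818) was the most variable member among wt mice. It held 102, 116, 149, 178 and 184 CPM in the wt HIP and 127, 130, 148, 185 and 261 CPM in the wt EC, and the highest value of both regions came from wt replicate 5, followed by wt replicate 3. The Ts66Yah libraries ranged from 111 to 130 CPM in HIP and from 142 to 191 CPM in EC, inside the wt range in both. Its log2 fold change was -0.30 ± 0.13 in HIP (unadjusted p = 0.0363, adjusted p = 0.378) and -0.04 ± 0.17 in EC (adjusted p = 0.995).

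**Figure D3:**
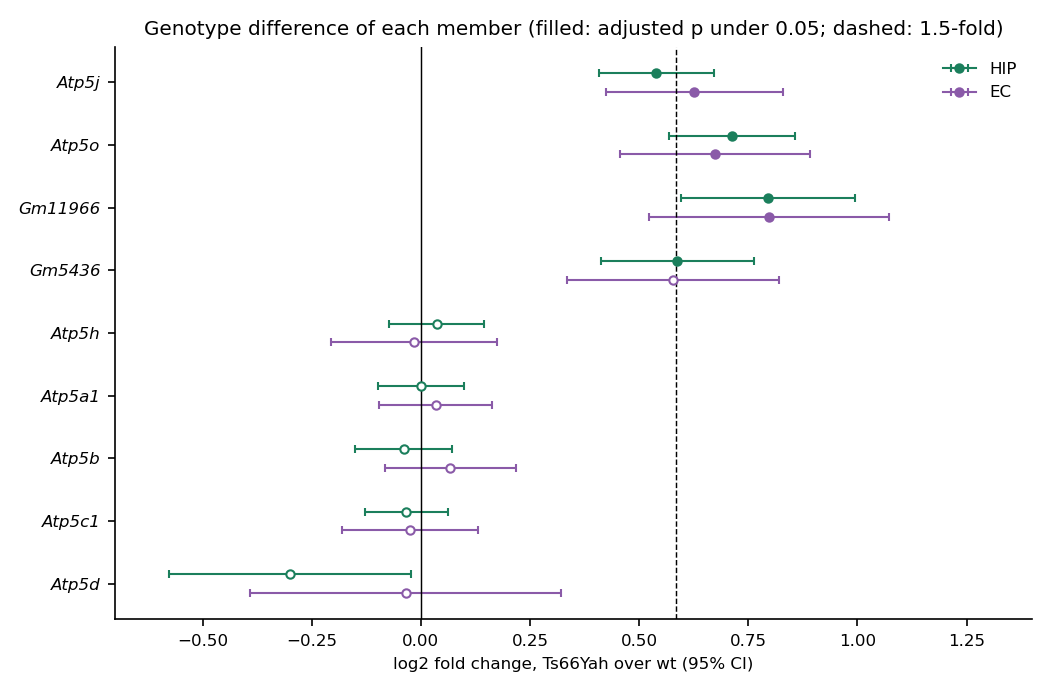
Log2 fold change of Ts66Yah over wt (x axis) with its 95% confidence interval for the 9 genes, in HIP (green) and EC (purple); filled points have an adjusted p under 0.05, the solid line is no difference and the dashed line is 1.5-fold. Atp5j, Atp5o and the 2 pseudogenes lie around or right of the dashed line, and the intervals of the 5 partner subunits end left of it in both regions.

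Since 3 gene copies against 2 give a ratio of 1.5, each member was also tested against a 1.5-fold level. Atp5j was not distinguishable from 1.5-fold (log2 difference of -0.05 ± 0.06 in HIP, adjusted p = 0.493, and 0.04 ± 0.09 in EC, adjusted p = 0.679). The same held for Atp5o (0.13 ± 0.07, adjusted p = 0.0872, and 0.09 ± 0.10, adjusted p = 0.415) and for Gm5436 (0.00 ± 0.08, adjusted p = 0.976, and -0.01 ± 0.11, adjusted p = 0.952). Without Ts66Yah replicate 5, Atp5o passed as above 1.5-fold in HIP (0.16, adjusted p = 0.0445). Gm11966 lay above 1.5-fold in HIP by 0.21 ± 0.09 (adjusted p = 0.0477), but this was lost without any 1 of 7 libraries, namely wt replicates 1, 2 and 3 and Ts66Yah replicates 2, 3, 4 and 5 (adjusted p up to 0.129). In EC its difference of 0.21 ± 0.13 missed the threshold (adjusted p = 0.131) and passed it without wt replicate 5 (adjusted p = 0.0199) and with the replicate number as a block (0.25, adjusted p = 0.0191). All 5 partner subunits lay below 1.5-fold in both regions, with adjusted p-values from 4.74e-08 to 0.00352. Most genes of the genome are not triplicated, and 82.4% of all tested genes departed from 1.5-fold in HIP and 81.7% in EC. The adjustment over all of them therefore changed the p-values of this test little. The unadjusted p in HIP was 0.0392 for Gm11966 and 0.0746 for Atp5o (edgeR).

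Ratios within a library do not depend on its depth or on scaling factors, and 6 of them were compared between genotypes in both regions. The two-sided exact permutation test over all divisions of 11 mice into 5 and 6 can give no p under 0.00433, and p-values were adjusted over the 12 tests. There were 76.1 ± 7.94 Atp5j counts per 100 Atp5h counts in the wt HIP (SD, n = 5) and 108 ± 4.43 in the Ts66Yah HIP (n = 6), and 65.3 ± 5.04 and 103 ± 6.77 in EC. For Atp5o, the values were 53.4 ± 4.15 and 85.1 ± 5.00 in HIP and 54.0 ± 3.83 and 87.2 ± 6.18 in EC. In all 4 comparisons every Ts66Yah library was above every wt library (exact p = 0.00433, adjusted p = 0.0104). Thus transcripts of 2 peripheral stalk subunits increased relative to those of another, Atp5h, by 1.42-fold to 1.62-fold. By contrast, the ratio of the head subunits, Atp5a1 to Atp5b, was 89.5 and 91.8 per 100 in the wt and the Ts66Yah HIP and 98.4 and 96.2 in EC (exact adjusted p = 0.462 and 0.486).

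Between the triplicated subunits, Atp5j stood at 142 ± 9.39 counts per 100 Atp5o counts in the wt HIP and 127 ± 11.7 in the Ts66Yah HIP (exact p = 0.0476, adjusted p = 0.0816), and at 121 ± 7.83 and 118 ± 11.4 in EC (exact adjusted p = 0.641). Without Ts66Yah replicate 5 the HIP difference passed the threshold (exact adjusted p = 0.0159).

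The ratio of Gm11966 to Atp5j was itself higher in Ts66Yah. The wt HIP libraries held 21.4 to 26.9 Gm11966 counts per 100 Atp5j counts (24.0 ± 2.04, SD, n = 5), and the Ts66Yah HIP libraries held 27.2 to 30.8 (28.7 ± 1.23, n = 6), with no overlap (1.20-fold, exact p = 0.00433, adjusted p = 0.0104). In EC the values were 26.8 ± 1.87 and 30.3 ± 1.63, and 5 of 6 Ts66Yah libraries were above all wt libraries (1.13-fold, exact p = 0.0130, adjusted p = 0.0260). The EC call was lost without wt replicate 1, 2 or 4 (exact adjusted p = 0.0571 in each case). The ratio of Gm5436 to Atp5o moved the other way without passing the threshold, from 21.7 ± 2.75 to 19.9 ± 1.68 per 100 in HIP and from 21.2 ± 1.72 to 19.8 ± 0.587 in EC (exact adjusted p = 0.283 and 0.143). Without wt replicate 3 the EC ratio passed (exact adjusted p = 0.0327).

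**Figure D4:**
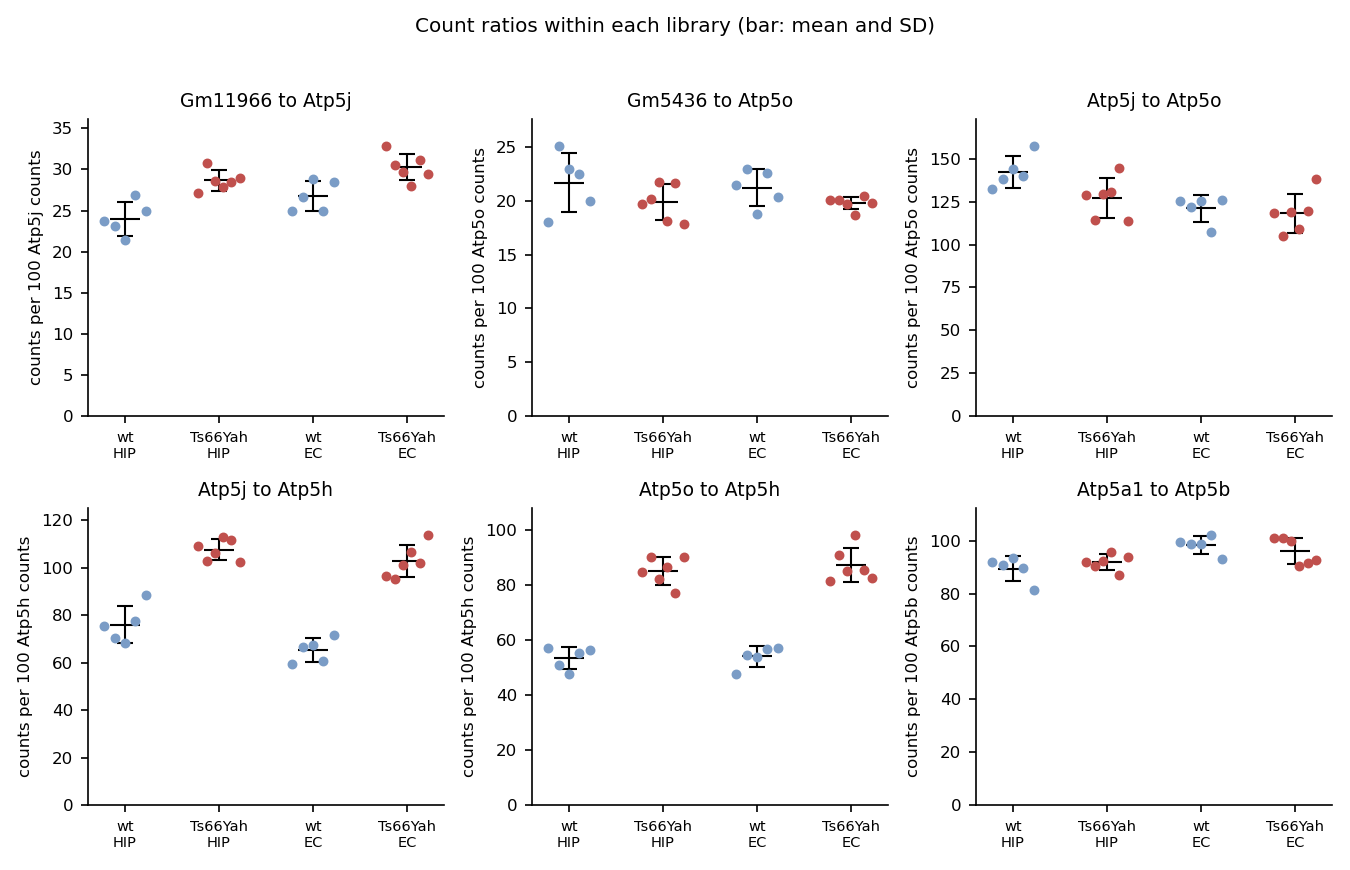
Counts of 1 gene per 100 counts of another (y axis, from 0) in each library for the 6 ratios; blue points are wt, red points Ts66Yah, and bars give mean and SD. The Atp5j to Atp5h and Atp5o to Atp5h panels show a full separation of genotypes in both regions, the Gm11966 to Atp5j panel does so in HIP only, and the Atp5a1 to Atp5b panel overlaps.

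When the counts of each pseudogene were added to its parent, Atp5j had a log2 fold change of 0.59 in HIP (adjusted p = 0.000245) and 0.66 in EC (adjusted p = 0.00727), and Atp5o had 0.69 (adjusted p = 2.68e-05) and 0.66 (adjusted p = 0.00835). All 4 sums passed the threshold, as the parents alone did. Other genes share reads or bases with the members too. Of the exon bases of Atp5j, 12.7% overlap Gabpa on the opposite strand, a transcription factor gene that is triplicated as well and rose in HIP (27.7 ± 2.23 to 40.1 ± 3.65 CPM, adjusted p = 0.00197) but not past the threshold in EC (21.3 ± 2.70 to 29.2 ± 2.50 CPM, adjusted p = 0.0603). Of the Atp5o exon bases, 35.6% overlap antisense genes, of which D430001F17Rik held at most 9 counts in a library. A second gene named Atp5o (ENSMUSG00000116933) shares 194 of the 789 stretches of Atp5o and had a count of 0 in all 22 libraries. Of its exon bases, 100% overlap exons of Atp5o or Donson on the same strand. Of the Atp5o exon bases, 12.3% overlap this second gene on the same strand. How reads in such overlaps were counted is not given in the sources used here. The count of 0 therefore does not show that the second gene is silent. Whether the counting used strand is not given in the sources used here.

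For the partners, 46.0% of the stretches of Atp5h (291 of 633) also occur in the pseudogene Gm10250, which held 14.5 ± 1.22 CPM in the wt HIP and 14.8 ± 1.26 CPM in the Ts66Yah HIP, and 17.9 ± 0.856 and 16.9 ± 2.83 CPM in EC (adjusted p = 0.909 and 0.975). Gm10250, a copy of a subunit that is not triplicated, thus showed no difference past the threshold. Atp5c1 shared 3.58% and 3.31% of its stretches with the pseudogenes Gm8722 and Atp5c1-ps, neither of which passed the threshold in either region, and 6 stretches with Gm14794. Atp5a1 shared 80 stretches with Haus1 on the other strand, Atp5b shared 16 with Gm4707, and Atp5h shared 24 with Gm14472 and at most 7 with each of its other matches. No other gene held a stretch of Atp5d.

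The other subunits and accessory genes of complex V were described with a list of 14 genes, all of which were tested in both regions. None passed the threshold in either direction. Their median log2 fold change was 0.05 in HIP and -0.02 in EC, beside medians of 0.00 and 0.00 over all tested genes. The highest value in both regions belonged to mt-Atp8, which is encoded in mitochondrial DNA (0.34 ± 0.36 in HIP and 0.45 ± 0.39 in EC). The lowest belonged to genes of the proton-carrying c ring, Atp5g3 in HIP (-0.24 ± 0.07, unadjusted p = 0.00453, adjusted p = 0.185) and Atp5g2 in EC (-0.41 ± 0.38). An unadjusted p under 0.05 (edgeR) was found for 3 of the 14 in HIP and 0 in EC. Over all tested genes it was found for 2188 of 18452 and 1103 of 17658. Beside Atp5g3, the 3 were Atp5k (0.25 ± 0.11, unadjusted p = 0.0375, adjusted p = 0.384) and Atp5mpl (0.18 ± 0.08, unadjusted p = 0.0461, adjusted p = 0.410), both higher in Ts66Yah. Taking the 12 nuclear genes of this list with the 5 partner members, the 95% interval of the fold ended below 1.5 in 16 of 17 genes in HIP and in 17 of 17 in EC, and the exception was Atp5g2. Both mitochondrial DNA genes had intervals that contained 1.5-fold. The list of 9 assembly factors and partners also held no gene past the threshold, with extremes at Fmc1 (-0.31 ± 0.15) and Ppif (0.09 ± 0.06) in HIP and at Tmem242 (-0.11 ± 0.07) and Fmc1 (0.07 ± 0.23) in EC.

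**Figure D5:**
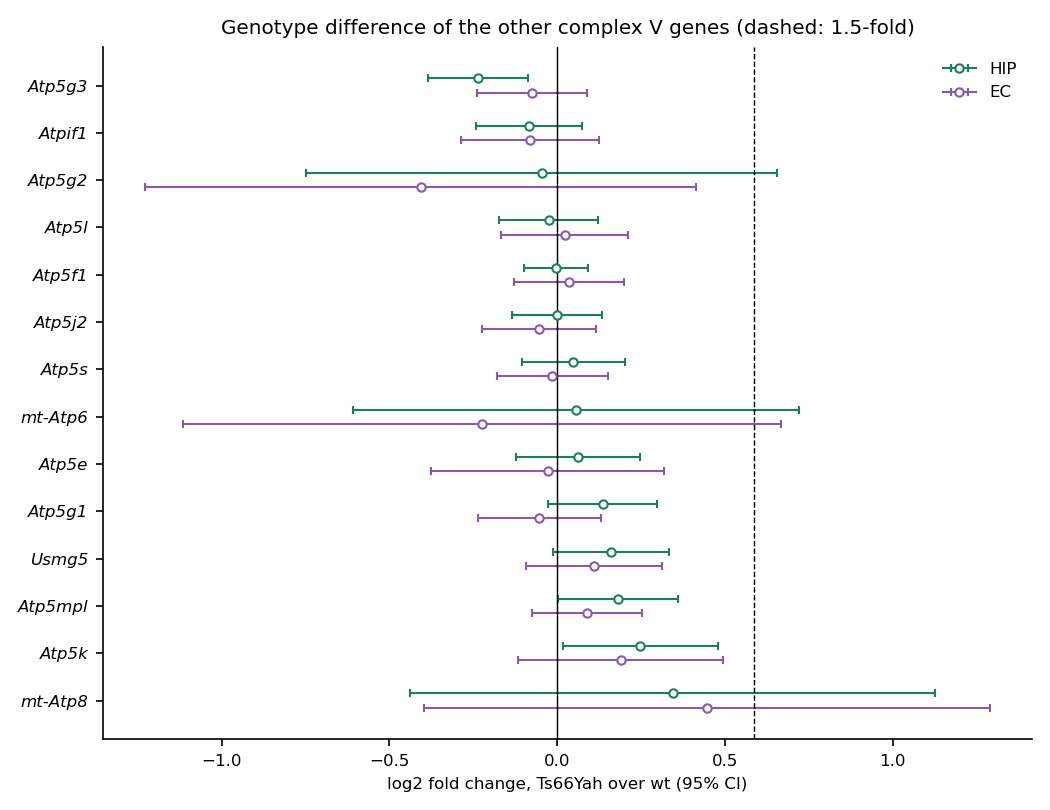
Log2 fold change of Ts66Yah over wt (x axis) with its 95% confidence interval for the 14 other complex V genes, ordered by the HIP value; green is HIP, purple is EC, the solid line is no difference and the dashed line 1.5-fold. All points are open, as no adjusted p was under 0.05, and the intervals of Atp5g2, mt-Atp6 and mt-Atp8 are the widest.

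Whether the genotype difference itself differed between regions was tested over all 22 libraries. The interaction called 0 of 19074 genes with edgeR (0%), with 388 at an unadjusted p under 0.05, and 0 with DESeq2. For Atp5j the difference of the log2 fold changes, EC minus HIP, was 0.09 ± 0.12 with an interval of -0.15 to 0.33, for Atp5o -0.04 ± 0.13 (-0.30 to 0.22), for Gm11966 0.00 ± 0.16 (-0.34 to 0.34) and for Gm5436 -0.01 ± 0.14 (-0.30 to 0.28). The largest value among the members was that of Atp5d (0.27 ± 0.23, -0.21 to 0.74). These estimates treated libraries of the same mouse as independent. With the animal as a block, the interaction called 0 genes as well.

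Between the regions of wt mice, 4 of 9 members passed the threshold, all as higher in EC, beside 47.7% of all tested genes that differed in either direction and 23.4% that were higher in EC. This share is near that of all genes in either direction. The fit treated libraries of the same mouse as independent. With the animal as a block, 4 members and 9562 genes passed. Without the block, the 4 were Atp5o (log2 difference of 0.34 ± 0.08, adjusted p = 0.00462), Atp5h (0.32 ± 0.06, adjusted p = 0.00133), Gm5436 (0.31 ± 0.10, adjusted p = 0.0184) and Atp5a1 (0.25 ± 0.05, adjusted p = 0.00205). The call of Gm5436 was lost without wt replicate 2 or 5 (adjusted p = 0.0540 and 0.0919). The other 5 were also higher in EC in their estimates without passing the threshold, from 0.10 ± 0.10 for Atp5j to 0.27 ± 0.14 for Gm11966. Marker genes of cell types moved with region as well. The summed neuronal markers ranged from 4800 to 5105 CPM in the wt HIP libraries and from 5388 to 6568 CPM in the wt EC libraries, and the 5 oligodendrocyte markers from 6822 to 9975 CPM and from 1295 to 3292 CPM. Neither list overlapped between regions, and their part in the result was not tested. In bulk tissue, a different number of cells of a type and a different amount of RNA per cell cannot be told apart.

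Levels can be compared between genes only per length. Divided by the length of the transcript, the wt HIP levels ran from Atp5b (591 ± 31.8 CPM per kb) and Atp5a1 (409 ± 14.9) through Gm11966 (214 ± 32.6), Atp5c1 (169 ± 4.23), Atp5h (150 ± 9.31), Atp5d (104 ± 25.9), Atp5j (95.8 ± 8.99) and Atp5o (64.9 ± 4.49) to Gm5436 (18.3 ± 1.47). The ranges of Atp5c1 and Atp5h overlapped, as did those of Atp5d and Atp5j, and the other neighbours in this order did not. Divided by all annotated exon bases, which include rare isoforms, Atp5a1 (323 ± 11.8) came before Atp5b (267 ± 14.4), and Atp5o (27.6 ± 1.91) and Atp5j (24.8 ± 2.32) overlapped. Gm11966 thus stood above Atp5j in level per length on both scales, although each 50-base stretch of its annotated sequence is an Atp5j stretch. Its length was 87 bases on both scales, and only 38 stretches of 50 bases fit in it. Its level per length, and so its place in this order, is therefore not comparable with those of the longer genes.

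The genes with the most similar pattern over the 22 libraries were sought among the 9904 genes whose mean reached 10 CPM, by the root mean square difference of centred log2 CPM. For Atp5j they were Mrpl39 (0.113), Cryzl1 (0.124) and Wrb (0.132), all on chromosome 16 within the triplicated segment. For Atp5o they were Gm5436 (0.127), Atp5j (0.146) and Gm11966 (0.148), and for Gm11966 they were Atp5j (0.143), Atp5o (0.148) and Wrb (0.187). In the order for Atp5j, the partner subunits came after the genes named above. Among the 9904 genes, they took places 311 (Atp5b), 590 (Atp5a1), 855 (Atp5h), 1170 (Atp5c1) and 6750 (Atp5d). All these points share libraries and genotype, and the values are descriptions.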

How the data were processed

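RNA was sequenced from HIP and EC of 5 wt and 6 Ts66Yah mice. According to the study's methods, single-end reads of 50 bases were aligned to GRCm38 with Hisat2 and assigned to genes with HTSeq-count; the strand setting and the treatment of reads with several alignments are not given in the sources used here. The labels describe poly(A) selection, and the methods also name a ribosomal depletion kit. The submitters' processing notes name bcl2fastq 2.17.1.14, DESeq2 and build mm10. The authors deposited raw counts per gene, with 0 unmapped columns. Their tables of DESeq2 and FCROS comparisons were not used.

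Symbols and transcripts came from GENCODE M21, where 55144 of 55385 identifiers matched. Counts were tested with edgeR 4.0.16 (R 4.3.3; TMM, filterByExpr, quasi-likelihood, Benjamini-Hochberg over all tested genes, threshold 0.05) within each region. Log(1.5) was added to the Ts66Yah offsets for the 1.5-fold test. Ratios used log2 of counts + 0.5 and an exact permutation test (scipy). Copies were compared by shared stretches of 50 bases. Scripts were tested on simulated data. Alternatives were DESeq2 1.42.0, RLE factors, 2 other filters, 1 joint fit, blocks, single libraries left out, pseudogene counts added to parents and a GC correction over 50 bins. Values within ranges of animal numbers were added after seeing the data.

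Both regions came from the same mice, and deviations from the group means correlated in all 11 pairs (r from 0.183 to 0.604), so the animal was used as a block in an alternative for the interaction and the region comparison. No 2 libraries of the same group agreed within sampling noise (chi-square per gene of at least 12.9). The genes named were all 9 members, the extremes of the complex V list, the 3 genes most like Atp5j, Atp5o and Gm11966, and genes sharing 50 bases with a member. Genes of the complex V list with an unadjusted p under 0.05 (edgeR) were named as well. Members and lists were chosen with earlier results of these data known.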

Additional observations from a re-analysis of the deposited data

Results flagged for a closer look

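In 60 groups of 5 or 6 values (9 genes and 6 ratios in 4 groups), 4 had a highest or lowest library far from the others by Dixon's criterion, and chance alone flags about 1 in 20 groups. Atp5b was highest in Ts66Yah EC replicate 5 (1479 CPM). Atp5h was highest in wt EC replicate 5 (142 CPM) and in Ts66Yah HIP replicate 2 (116 CPM). The ratio of Atp5j to Atp5o was lowest in wt EC replicate 4 (107 counts per 100). No triplicated subunit or pseudogene had such a library in CPM.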

How the results depend on the processing

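The HIP calls of Atp5j and Atp5o were lost only within the lower range of animal numbers, and their EC calls within both ranges and with the block by range, under which 0 members passed in EC. The other alternatives run kept both calls. The number of genes past the threshold in HIP was 369 with DESeq2 and 65 with the block by range, and in EC it was 109 with DESeq2 and 79 with all 22 libraries in 1 fit. With pseudogene counts added to their parents, which removes their own values, 2 members passed in HIP. Gm11966 in EC lost its call with the GC correction (0.75, adjusted p = 0.110, edgeR), with the block by range and within both ranges. Its HIP departure from 1.5-fold lost its call with no filter (adjusted p = 0.0544). Gm5436 in HIP lost its call within both ranges. Gm5436 in EC passed with no filter (adjusted p = 0.0284), in the joint fit (adjusted p = 0.00288) and with the GC correction (adjusted p = 0.0309).

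wt and Ts66Yah libraries with the same replicate number came from different mice. Their deviations had correlations from -0.024 to 0.118 in HIP and from 0.0080 to 0.316 in EC. In each region, 2 of 5 wt libraries were most like the Ts66Yah library of their own number. What else the number may stand for is not given in the labels. With the replicate number as a block, 58 genes passed in HIP and 39 in EC, and 4 members in each region. Gm5436 passed in EC (0.64, adjusted p = 0.0186), as did the departure of Gm11966 from 1.5-fold there (0.25, adjusted p = 0.0191). Under this block the log2 fold change of Atp5a1 in HIP was 0.014, that of Atp5h in EC was 0.026, and the departure of Gm5436 in EC was 0.051.

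Estimates close to 0 changed sign without passing the threshold. The log2 fold change of Atp5a1 in HIP was 0.00069 with RLE factors, 0.00017 with no filter, 0.0043 with the filter of 1 CPM in 5 libraries, 0.022 with the GC correction and 0.033 within the higher range of animal numbers. Within the lower range, Atp5h was at -0.012 in HIP and 0.050 in EC, Atp5d at 0.18 in EC and Atp5c1 at 0.039 in EC. Within the higher range, Atp5c1 was at 0.0074 in HIP, Atp5b at -0.040 in EC and Atp5a1 at -0.025 in EC. Atp5d in EC was at 0.034 with the GC correction, and the interaction of Gm5436 was 0.0028 with no filter.

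Leaving out single libraries gave 76 to 148 genes in HIP and 37 to 58 in EC, with 4 and 3 to 4 members. The estimates ranged from -0.023 to 0.021 for Atp5a1 in HIP, from -0.12 to 0.17 for Atp5d in EC, from -0.055 to 0.021 for Atp5c1 in EC and from -0.072 to 0.028 for Atp5h in EC. Departures from 1.5-fold ranged from -0.093 to 0.0012 (HIP) and -0.014 to 0.13 (EC) for Atp5j, and from -0.051 to 0.033 (HIP) and -0.067 to 0.049 (EC) for Gm5436. Interactions ranged from -0.12 to 0.024 for Atp5o, -0.0013 to 0.065 for Atp5a1, -0.032 to 0.057 for Atp5c1, -0.11 to 0.0073 for Atp5h, -0.072 to 0.064 for Gm5436 and -0.11 to 0.087 for Gm11966. The log2 ratio differences ranged from 0.15 to 0.21 for Gm11966 to Atp5j in EC, from -0.21 to -0.13 for Atp5j to Atp5o in HIP and from -0.14 to -0.068 for Gm5436 to Atp5o in EC. The cause of these changes was not tested. The number of mice limits the precision, and no source says how reads that match a parent and its copy were assigned.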
